A study of Mus musculus with 10 samples.

Results

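The 10 genes described here belong to the exchange between retinal neurons and microglia, and they were followed across 10 RNA-seq libraries of mouse retina. They are the receptor Csf1r with its ligands Csf1 and Il34, the receptor Cx3cr1 with its ligand Cx3cl1, the ligands Tgfb1 and Tgfb2 with the receptor Tgfbr1, and the surface proteins Cd200 and Cd47. They were taken by symbol from the gene count table, and all 10 were among its 19999 genes. All 10 also passed the filter on low counts, which left 16852 genes tested.

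The retinas came from Balb/c mice, an albino strain. The light damage group held 5 libraries from retinas of a light-induced injury model, and the control group also held 5. Library names in both groups carry the word vehicle, whose substance is not named, and the libraries of the compound A74 mentioned in the design were not analysed here. Light intensity, exposure time, interval to harvest, age and sex do not appear in the labels, and nothing there says that libraries came from separate animals. The p-values therefore measure the spread between libraries, which may be technical in part.

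Library totals ran from 17900227 to 20337329 counts in light damage and from 14652535 to 20699236 in control. Light damage replicates 1 and 2 stood apart from the rest. Their counts of Xist, an RNA made in female cells, were 17174 and 20414, against 1 to 9 in the other 8 libraries. By this RNA they read as female and no control did, so sex was not balanced between the groups. In the same libraries lens markers summed to 7540 and 4050 CPM, which are counts scaled to a common library size. The sums were 23.7 to 125 in the other light damage libraries and 3.34 to 32 in controls. In light damage replicates 1 and 2 sex and lens content cannot be told apart. Results for the called genes are therefore also given without those libraries. Some are also given with a lens score, the mean log2 CPM of the lens markers, as a covariate. That score was higher in light damage, and with it 1 gene was higher and 7 were lower over all genes. Loss of a call in that fit therefore decides nothing. Of the 20 rod markers tested, 1 was higher and 2 were lower by edgeR's quasi-likelihood test at an adjusted p under 0.05. The shares over all genes tested were 5.32% and 7.85%. Without light damage replicates 1 and 2 the rod counts were 0 and 1.

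Microglia are the resident macrophages of the retina, and they depend on signals from their neighbours. CSF1R is a receptor tyrosine kinase that microglia need for survival, and it is activated by CSF1 and by IL-34, a ligand made largely by neurons. CX3CL1 is a chemokine tethered to neuronal membranes that binds CX3CR1 on microglia. TGF-beta, released from a latent complex and read through TGFBR1 and SMAD proteins, maintains the homeostatic state of microglia. CD200 and CD47 are membrane proteins that restrain myeloid cells through CD200R1 and SIRPA.

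The promoters of Tgfb2 and Tgfb1 are shown because one was called and the other was not, and because their base composition differs. Their changes were not shown to differ: the log2 ratio of Tgfb2 to Tgfb1 differed by -0.30 between groups (exact permutation p = 0.389). A link between these bases and either change was not tested. Each run is the 250 bases before the transcription start in RefSeq on GRCm38.p6, written 5′ to 3′ on the gene's strand. Tgfb2 lies at chr1:186705990-186706239 on the minus strand and Tgfb1 at chr7:25686752-25687001 on the plus strand. Capitals mark the TATA box motif TATAAA, the E-box motif CACGTG and the GC box motif GGGCGG, each on either strand. A GC box on the opposite strand reads CCGCCC.
Tgfb2: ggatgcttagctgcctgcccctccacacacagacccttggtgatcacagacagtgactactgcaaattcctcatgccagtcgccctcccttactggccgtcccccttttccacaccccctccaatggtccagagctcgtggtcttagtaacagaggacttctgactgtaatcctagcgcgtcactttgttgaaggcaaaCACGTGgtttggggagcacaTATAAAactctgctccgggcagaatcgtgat
Tgfb1: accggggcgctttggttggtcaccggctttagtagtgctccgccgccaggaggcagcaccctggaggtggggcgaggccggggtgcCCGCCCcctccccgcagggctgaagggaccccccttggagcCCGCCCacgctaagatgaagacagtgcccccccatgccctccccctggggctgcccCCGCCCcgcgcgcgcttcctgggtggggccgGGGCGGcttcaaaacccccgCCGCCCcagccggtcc

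The Tgfb2 window held 1 TATAAA, whose first base lay 31 bases before the start, and 1 CACGTG, 51 bases before it, with no GGGCGG. The Tgfb1 window held 5 GGGCGG matches, counting both strands, and neither of the other motifs. No matches of different motifs overlapped. Across 32851 mouse promoter windows that include these bases, TATAAA was present in 12.4%, CACGTG in 6.02% and GGGCGG in 32.7%. Guanine and cytosine made up 53.6% of the Tgfb2 window and 75.2% of the Tgfb1 window, higher than in 53.9% and 96.1% of promoters. These matches describe the letters and are not evidence of a bound factor.

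Csf1r and Tgfb2 were higher in light damage, and none of the 10 genes was lower. Csf1r was 1.63-fold and Tgfb2 1.26-fold above control. Calls required an adjusted p under 0.05 (edgeR, quasi-likelihood test, Benjamini-Hochberg over all genes tested). By that rule 5.32% of all genes tested were higher (896 genes) and 7.85% were lower (1323 genes). In the same 2 members every light damage library lay above every control library, a pattern found in 4.31% of all genes tested (726 genes). The log2 fold change was positive for 9 of the 10, with a median of 0.25, while the median over all genes tested was 0.0016. At an unadjusted p under 0.05, 5 members were higher and none was lower. Over all 16852 genes tested, 5110 had an unadjusted p under 0.05 in either direction. With light damage replicates 1 and 2 left out, no member was called. In that fit 135 genes were higher and 268 were lower over all genes, so few calls remained anywhere. The log2 fold change was then 0.65 for Csf1r and 0.30 for Tgfb2.

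**Figure D1:**
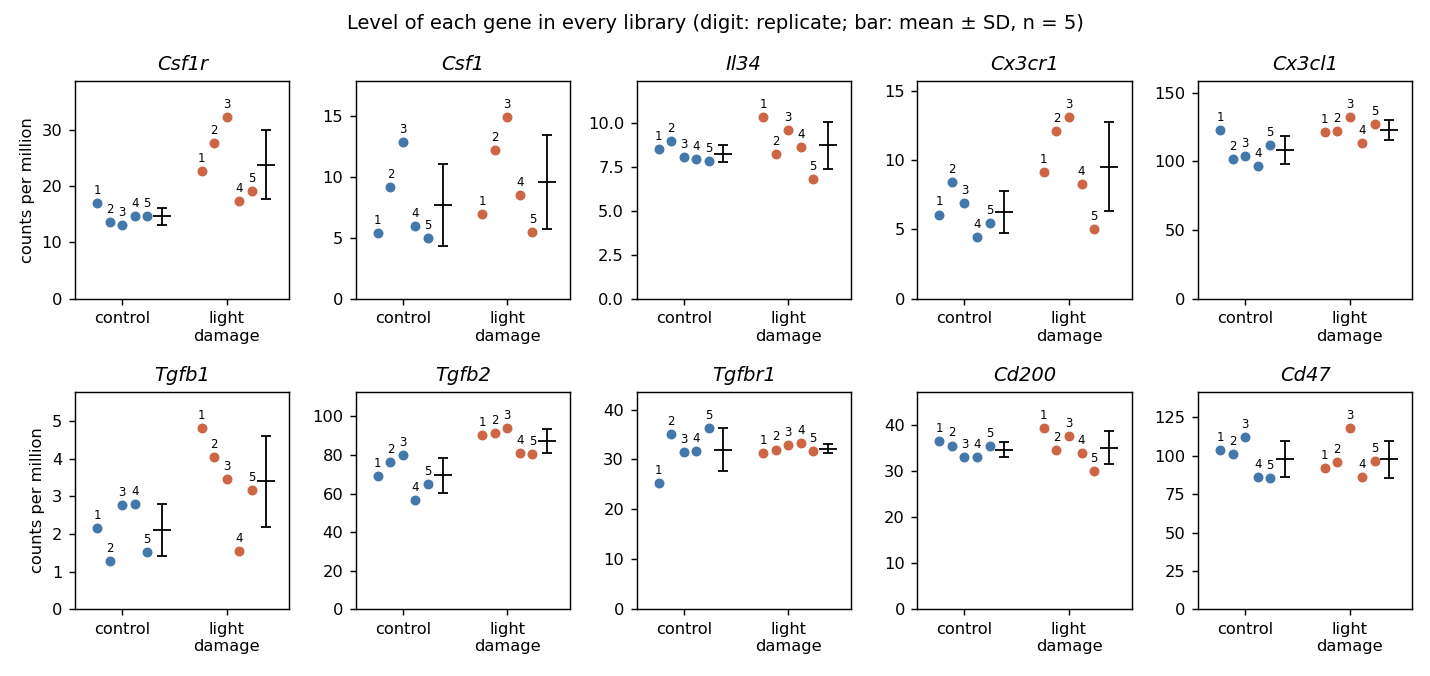
CPM (TMM scaled) of the 10 genes in each library, with 1 panel a gene and its own vertical axis. Points carry the replicate number, and the bars beside them give mean ± SD of the 5 libraries. The groups are separate for Csf1r and Tgfb2 and overlap for the other 8 genes.

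Csf1r was measured in controls 1 to 5 at 17, 13.7, 13, 14.7 and 14.7 CPM. In light damage replicates 1 to 5 it stood at 22.7, 27.7, 32.2, 17.4 and 19.1 CPM. The groups did not overlap, although light damage replicate 4 lay only slightly above control 1, and light damage replicates 2 and 3 were highest. The means were 23.8 ± 6.11 CPM (SD, n = 5) and 14.6 ± 1.54 (SD, n = 5), a log2 fold change of 0.71 (SE 0.15) with an adjusted p of 0.0132 by edgeR's quasi-likelihood test. The call was kept in each of 10 fits that left out 1 library, where the log2 fold change ran from 0.57 to 0.80. Without light damage replicates 1 and 2 it was 0.65 with an adjusted p of 0.0818. In bulk tissue a change in the number of microglia and a change in RNA per cell cannot be told apart.

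Whether the libraries mark strand was not given in the sources used here. In GENCODE M21 Csf1r shares 873 exonic bases with Hmgxb3, which lies on the opposite strand. Hmgxb3 had 39.2 ± 0.597 CPM in light damage and 43.8 ± 3.02 in control (SD, n = 5 each). Opposite in sign to Csf1r, it differed by -0.16 on the log2 scale (SE 0.06, edgeR adjusted p = 0.0859). The other annotated overlaps were of antisense genes with 124 bases of Tgfb2, 78 of Cx3cr1, and 22 and 75 of Il34. The assignment of overlapping reads was likewise not given.

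Il34, the neuronal ligand of CSF1R, gave no call. Controls 1 to 5 held 8.5, 8.94, 8.03, 7.93 and 7.81 CPM, and light damage replicates 1 to 5 held 10.3, 8.22, 9.56, 8.64 and 6.79. The highest and the lowest values both belonged to light damage, so the groups overlapped. Its log2 fold change was 0.08, with a 95% interval from the fit of -0.17 to 0.33 and an edgeR adjusted p of 0.687. It ran from 0.01 without light damage replicate 1 to 0.16 without replicate 5. The interval of Il34 lies below the Csf1r estimate of 0.71, and the level of Il34 relative to Csf1r was compared directly through their ratio.

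Csf1, the other CSF1R ligand, varied more between libraries of the same group. Controls 1 to 5 held 5.43, 9.2, 12.9, 5.96 and 5 CPM, and light damage replicates 1 to 5 held 6.94, 12.2, 14.9, 8.53 and 5.45. Replicate 3 was highest in each group, and the ranges overlapped over most of their length. The log2 fold change was 0.32 with a 95% interval of -0.48 to 1.11 and an edgeR adjusted p of 0.584, so neither no change nor a change as large as that of Csf1r lay outside the interval. The estimate was 0.10 without light damage replicate 3 and 0.59 without control 3. With the replicate number as a block it was 0.32 (SE 0.11, edgeR adjusted p = 0.0567).

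Within each library the log2 ratio of Il34 to Csf1r was lower in light damage. It was -0.99, -0.61, -0.68, -0.88 and -0.90 in controls 1 to 5 and -1.13, -1.74, -1.74 and -1.48 in light damage replicates 1, 2, 3 and 5. Light damage replicate 4 lay just below control 1, so the groups were separate but nearly touched. The difference of means was -0.60, with a two-sided exact permutation p of 0.00794, the smallest that 5 against 5 libraries can give. Adjusted over the 10 ratios computed, p was 0.0794. With that smallest p, a single ratio among 10 could not pass the adjustment whatever its size. The ratio of Csf1 to Csf1r differed by -0.35 (exact permutation p = 0.365, adjusted 0.556) and that of Il34 to Csf1 by -0.25 (p = 0.468, adjusted 0.585), both with overlapping groups.

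The fractalkine pair did not pass the threshold at either end in the fit on group alone. Cx3cr1, the microglial receptor, was at 6.08, 8.42, 6.89, 4.44 and 5.48 CPM in controls 1 to 5. Light damage replicates 1 to 5 had 9.17, 12.1, 13.1, 8.31 and 5.06 CPM. Light damage replicate 5 fell within the control range and replicate 4 just under its top, while the other 3 lay above every control. The log2 fold change was 0.61 (SE 0.24, 95% interval 0.09 to 1.13) with an edgeR adjusted p of 0.11. Without light damage replicate 5 it was 0.77 with an edgeR adjusted p of 0.0131, and DESeq2 on all libraries gave an adjusted p of 0.0417. With the replicate number as a block the edgeR adjusted p was 0.00981.

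Cx3cl1, the neuronal ligand, was the most abundant of the 10 genes. Controls 1 to 5 held 123, 102, 104, 96.9 and 112 CPM, and light damage replicates 1 to 5 held 121, 122, 132, 113 and 127. Control 1 lay inside the light damage range and the other 4 controls lay below it. The log2 fold change was 0.19 (SE 0.07, 95% interval 0.05 to 0.33), with an edgeR adjusted p of 0.0694. It reached 0.25 with an edgeR adjusted p of 0.0121 when control 1 was left out, and DESeq2 on all libraries gave 0.0435. With the replicate number as a block the edgeR adjusted p was 0.0233. The log2 ratio of Cx3cl1 to Cx3cr1 differed between the groups by -0.36 (exact permutation p = 0.246, adjusted 0.508).

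Tgfb2, the TGF-beta isoform with the higher level here, rose. In controls 1 to 5 it stood at 69.1, 76.3, 80, 56.7 and 64.9 CPM, and in light damage replicates 1 to 5 at 90.3, 91.2, 94, 80.8 and 80.6. Every light damage library lay above every control, the narrowest gap being that between light damage replicate 5 and control 3. The means were 87.4 ± 6.23 and 69.4 ± 9.25 CPM (SD, n = 5 each). On the log2 scale Tgfb2 was higher by 0.33 (SE 0.08) with an adjusted p of 0.017 by edgeR's quasi-likelihood test. Leaving out light damage replicate 3 ended the call at 0.31 and an adjusted p of 0.0512, and leaving out light damage replicates 1 and 2 gave 0.30 and 0.123.

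Tgfb1, the other TGF-beta ligand among the members, was the gene with the fewest reads, at 20 to 86 counts a library. Controls 1 to 5 held 2.16, 1.29, 2.77, 2.79 and 1.51 CPM, and light damage replicates 1 to 5 held 4.81, 4.03, 3.45, 1.55 and 3.17. Light damage replicate 4 lay among the controls and the other 4 lay above them. The log2 fold change of Tgfb1 was 0.69 (SE 0.28, 95% interval 0.09 to 1.28), with an edgeR adjusted p of 0.113. The estimate moved with single libraries: without light damage replicates 1 and 2 it was 0.37, adjusted p 0.514, and without replicate 4 it was 0.87, adjusted p 0.0308.

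Tgfbr1, the kinase receptor of both ligands, had 32.2 ± 0.889 CPM in light damage and 32 ± 4.29 in control (SD, n = 5 each). Its light damage values, 31.2 to 33.3 CPM, all lay inside the control range of 25.3 to 36.3 CPM. The log2 fold change was 0.01 with a 95% interval of -0.17 to 0.19 and an edgeR adjusted p of 0.942. Neither the ratio of Tgfb2 to Tgfb1 (difference -0.30 on the log2 scale, exact permutation p = 0.389, adjusted 0.556) nor that of Tgfb1 to Tgfbr1 (0.62, p = 0.151, adjusted 0.503) had an unadjusted p under 0.05.

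The restraint signals gave no call. Cd200, carried by neurons and endothelium, held 36.5, 35.6, 33, 33.2 and 35.4 CPM in controls 1 to 5 and 39.4, 34.7, 37.6, 33.9 and 30.1 in light damage replicates 1 to 5. Light damage supplied both ends of the range. Its log2 fold change was 0.02 with a 95% interval of -0.14 to 0.17 and an edgeR adjusted p of 0.903.

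Cd47, a broadly expressed signal against phagocytosis, held 104, 101, 112, 86.3 and 85.5 CPM in controls 1 to 5 and 92.2, 95.9, 118, 86.3 and 96.5 in light damage replicates 1 to 5. The means were 97.8 ± 12 and 97.9 ± 11.7 CPM (SD, n = 5 each), and the log2 fold change had a 95% interval of -0.20 to 0.19 (edgeR adjusted p = 0.99). Its receptor Sirpa, which is also abundant in photoreceptors and other neurons, had 191 ± 7.81 CPM against 180 ± 19.2, a log2 fold change of 0.09 (SE 0.07, edgeR adjusted p = 0.427). The log2 ratio of Cd47 to Sirpa differed by -0.09 (exact permutation p = 0.595, adjusted 0.661). Cd200r1, the receptor of CD200, was not analysed here.

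**Figure D2:**
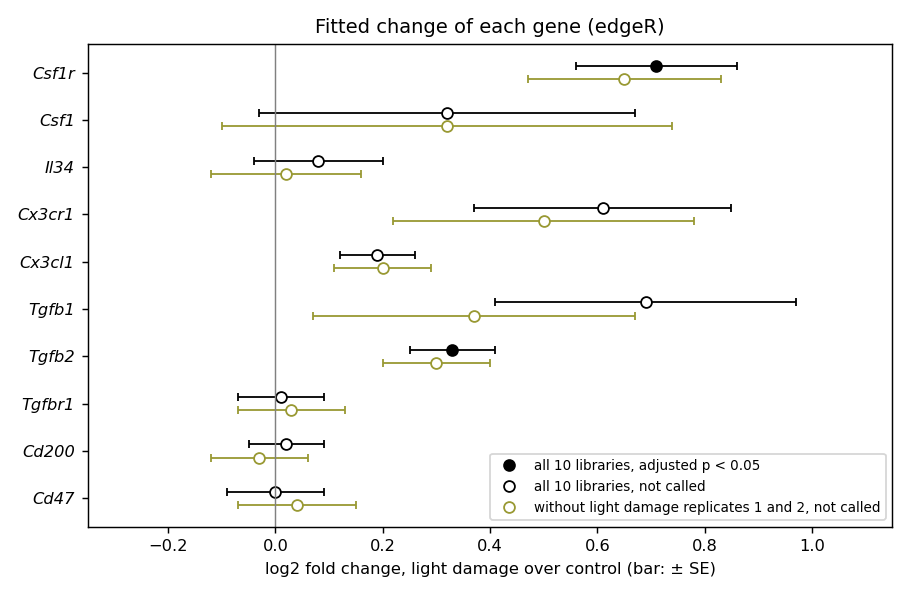
Log2 fold change of each gene, light damage against control, from edgeR's quasi-likelihood fit on all 10 libraries (black) and without light damage replicates 1 and 2 (olive), with bars of ± 1 SE and filled points for called genes. Csf1r and Tgfb2 are filled, at 0.71 and 0.33, and no olive point is filled.

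To order the genes by level, CPM was divided by the length of the longest annotated transcript in kilobases. In controls Cx3cl1 stood first at 32.5 ± 3.11 CPM per kb (SD, n = 5), then Cd47 at 18.7 ± 2.23, Cd200 at 14.8 ± 0.666 and Tgfb2 at 13.6 ± 1.81. Below them came Tgfbr1 at 5.56 ± 0.746, Il34 at 4.59 ± 0.261, Csf1r at 3.11 ± 0.328, Csf1 at 1.84 ± 0.802, Cx3cr1 at 1.39 ± 0.334 and Tgfb1 at 0.817 ± 0.271. The ranges of Cd200 and Tgfb2 overlapped, as did those of Tgfbr1 and Il34, and each neighbouring pair from Csf1r down to Tgfb1, so these orders are not resolved. In light damage Csf1r had 5.07 ± 1.3 CPM per kb and Il34 4.85 ± 0.754. Their ranges there, 3.7 to 6.85 and 3.78 to 5.76, overlapped, so that order is not resolved either.

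**Figure D3:**
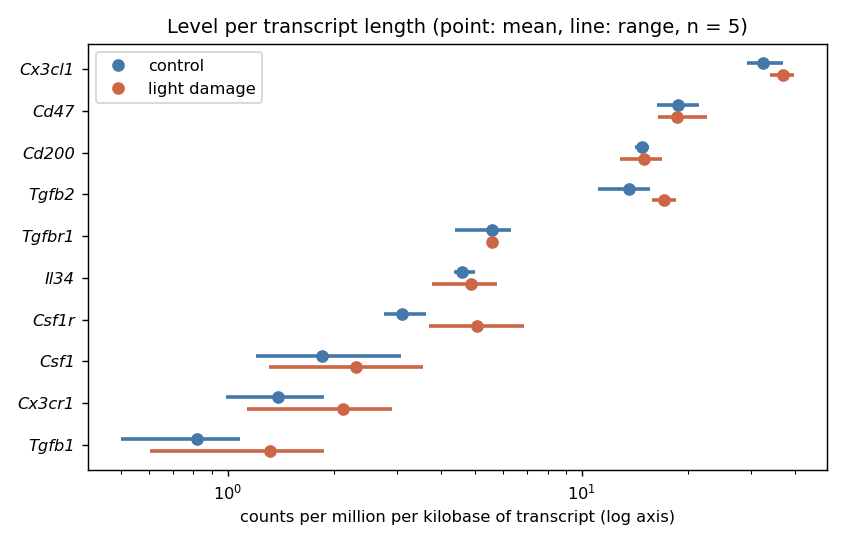
Level of each gene in CPM per kb of the longest annotated transcript, on a log axis, with points for the mean and lines for the range of the 5 libraries of each group, ordered by the control mean. Cx3cl1 is highest at a control mean of 32.5 and Tgfb1 lowest at 0.817.

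Microglial markers moved in the same direction as Csf1r. Of 28 markers written, which leave out Csf1r and Cx3cr1, 27 were in the table and tested. All 27 had a positive log2 fold change, with a median of 0.57, and none was called by edgeR's quasi-likelihood test. At an unadjusted p under 0.05 there were 12, against 5110 of all 16852 genes tested. DESeq2 called 3 and limma-voom called 0. Over all genes DESeq2 called 1340 higher and 1543 lower, more than the main fit. Their summed level was 143, 123, 142, 128 and 105 CPM in controls 1 to 5 and 164, 248, 301, 136 and 136 in light damage replicates 1 to 5. Light damage replicates 2 and 3 were highest, as for Csf1r, and replicates 4 and 5 lay inside the control range. No marker was at 0 in every library.

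The homeostatic marker P2ry12, a purinergic receptor, had 4.46 ± 1.34 CPM in light damage and 3.17 ± 0.49 in control, and Tmem119, a microglial membrane protein, had 4.55 ± 1.35 and 3.25 ± 0.906 (SD, n = 5 each). Their edgeR adjusted p-values were 0.11 and 0.153. The markers with the lowest p were Tyrobp, the adaptor of TREM2, at a log2 fold change of 0.89 (adjusted p = 0.0546), Olfml3 at 1.05 (0.0807), Trem2 at 0.60 (0.093) and the protease Ctss at 0.72 (0.101). Olfml3 was highest in light damage replicates 1 and 2. It was at 0.43 without those libraries and at 0.02 with the lens score of each library as a covariate. Trem2 was at 0.37 without light damage replicate 3. The median over the 27 was 0.36 without light damage replicate 3, 0.70 without replicate 1, and 0.51 without replicates 1 and 2 together.

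The log2 ratio of Csf1r to the mean of the microglial markers was 2.41 ± 0.18 in light damage and 2.22 ± 0.26 in control (SD, n = 5 each), a difference of 0.18 with an exact permutation p of 0.254 (adjusted 0.508). By the same exact permutation test, for Cx3cr1 the difference was 0.07 (p = 0.754, adjusted 0.754), and for Tgfbr1 it was -0.47 (p = 0.143, adjusted 0.503). The part of the marker shift in the Csf1r result was not tested further.

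**Figure D4:**
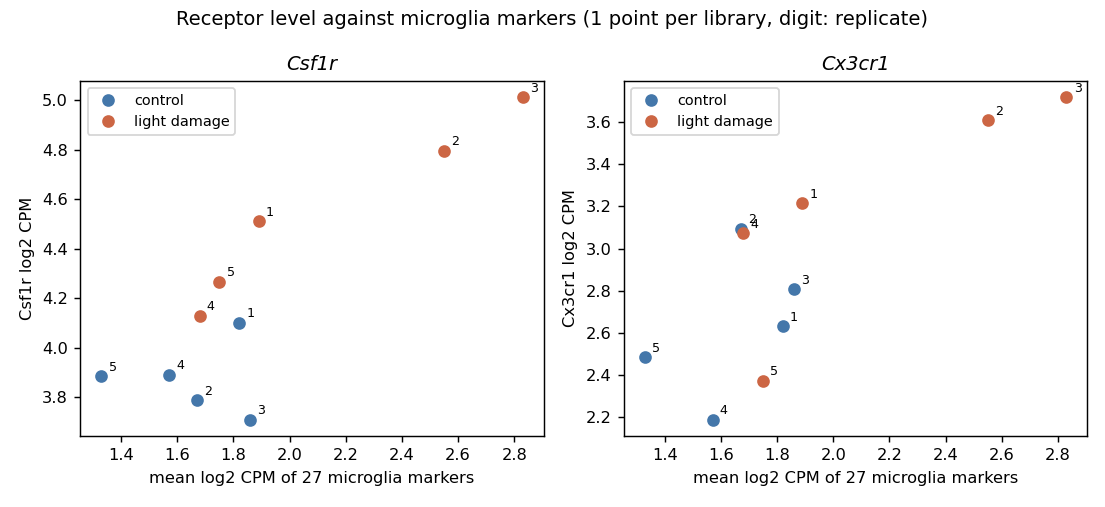
Log2 CPM of Csf1r (left) and Cx3cr1 (right) in each library against the mean log2 CPM of 27 microglial markers, with replicate numbers beside the points. Light damage replicates 2 and 3 have the highest marker means, 2.55 and 2.83, and the highest levels of both receptors.

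Markers of monocytes and of macrophages outside the parenchyma were few and low. Of 9 in the table only Lyve1 passed the count filter, with a log2 fold change of 0.17 (edgeR adjusted p = 0.314). The 9 summed to 13.7 to 18.2 CPM in light damage and 11.9 to 15.6 in control. Most of that sum was Lyve1, at 14 ± 1.25 and 12.4 ± 1.91 CPM, so it says little of the other markers. Ccr2, which marks monocytes, had 0.27 ± 0.279 CPM in light damage and 0.0354 ± 0.0555 in control (SD, n = 5 each). The groups overlapped, and at 0 to 15 counts a library the difference was not tested.

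Among 18 genes that reactive microglia raise, 12 were tested, all 12 had a positive log2 fold change, and the median was 0.58. The rest failed the count filter. The lysosomal protease Ctsd rose, by 0.37 (edgeR adjusted p = 0.00781), and was the single call. Over all genes tested 5.32% were higher. DESeq2 called 5, and over all genes it called 1340 higher and 1543 lower. Apoe, a lipid carrier also made by Müller glia, was at 0.74 (0.0532), the protease Ctsb at 0.20 (0.0611) and the lipid carrier Fabp5 at 0.75 (0.0613). Without light damage replicates 1 and 2 none of the 12 was called. Ctsd had 224 ± 25.2 CPM in light damage and 173 ± 14.8 in control (SD, n = 5 each), far above P2ry12 at 4.46 and 3.17. Which cells gave the reads of these genes was not tested.

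Of 22 genes of CSF1R signal transduction, 1 rose and 1 fell, with a median log2 fold change of 0.16. Over all genes tested 5.32% were higher and 7.85% were lower, so this list was not above either share. The same shares apply beside the counts of the pathway lists below. Mapk3, the kinase ERK1, rose by 0.18 (edgeR adjusted p = 0.0454), a call that was lost in 8 of the 10 fits leaving out 1 library. Cbl, the ubiquitin ligase that marks the activated receptor for degradation, fell by 0.47 on the log2 scale (edgeR adjusted p = 0.0137). This call was kept in all 10, and was lost without light damage replicates 1 and 2 (-0.50, adjusted p 0.0651) and with the lens covariate (-0.44, 0.366). Cbl had 44 ± 3.62 CPM in light damage and 60.9 ± 10.5 in control (SD, n = 5 each). Sos1, an exchange factor for RAS, was at -0.22 (0.0558). No gene of this list, Mapk3 included, was called without light damage replicates 1 and 2.

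In the fractalkine pathway 1 of the 10 tested genes rose and 1 fell, with a median of 0.20. Gnai2, the inhibitory G protein subunit that chemokine receptors use, rose from 201 ± 8.09 to 250 ± 15.1 CPM (SD, n = 5 each), with a log2 fold change of 0.31 (edgeR adjusted p = 0.00375) that was called in all 10 fits leaving out 1 library. The Gnai2 call was lost without light damage replicates 1 and 2 (0.29, adjusted p 0.0505) and with the lens covariate (0.25, 0.31). Itga4, an integrin subunit, fell by 0.54 on the log2 scale (edgeR adjusted p = 0.0427), lost in 6 of those fits. Itgb1 was at 0.26 (0.0969), and at 0.17 without light damage replicate 1. Ctss also belongs here, as a protease that frees CX3CL1 from membranes. No gene of this list, Itga4 included, was called without light damage replicates 1 and 2.

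Genes that store and activate TGF-beta were 16 in the tested set, with 1 rise, no fall and a median of 0.13. Itgb5, the beta subunit of an integrin that activates latent TGF-beta, rose from 44.5 ± 3.71 to 65.1 ± 7.29 CPM (SD, n = 5 each), with a log2 fold change of 0.55 (edgeR adjusted p = 0.00128). It was called in all 10 fits leaving out 1 library and, at an adjusted p of 0.0236, also without light damage replicates 1 and 2, but not with the lens covariate (0.32, adjusted p 0.241). Ltbp1, which anchors latent TGF-beta in the matrix, was at 0.75 (0.0632), Mmp9 at 0.19 (0.0677) and Ltbp4 at -0.33 (0.0851).

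Among 18 receptors and SMAD genes 2 rose and 4 fell, with a median of -0.07. Those that rose were the pseudoreceptor Bambi by 0.50 (edgeR adjusted p = 0.0152) and the inhibitory Smad6 by 0.74 (0.0292). Those that fell were the SMAD corepressor Ski by 0.20 on the log2 scale (0.0222), the BMP receptor Bmpr2 by 0.25 (0.0267), and the ubiquitin ligases Smurf1 by 0.20 (0.0289) and Smurf2 by 0.19 (0.0407). Of these 6, only Bambi was called in all 10 fits leaving out 1 library. Without light damage replicates 1 and 2 none of the 6 was called.

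Of 17 TGF-beta target genes 2 rose and none fell, and the median log2 fold change was 0.27. Id3, a transcription inhibitor that BMP signals also induce, rose by 0.58 (edgeR adjusted p = 0.0464). Leaving out 1 library ended the Id3 call in 8 of 10 fits. Tgfbi stood at 1.54 (0.0755) and fibronectin, Fn1, at -0.26 (0.0647), so named targets lay on both sides of 0. Tgfbi was at 0.98 without light damage replicate 3. Without light damage replicates 1 and 2 the median was 0.01 and no target, Id3 included, was called.

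None of 11 tested partners of CD200 and CD47 and related restraint genes was called by edgeR's quasi-likelihood test. At an unadjusted p under 0.05 there were 3, against 5110 of all 16852 genes tested. DESeq2 and limma-voom called 0, and the median was 0.09. Siglece, an inhibitory receptor for sialic acid, was at -0.68 (edgeR adjusted p = 0.0909). Calr, the pro-phagocytic calreticulin, was at 0.16 (0.115), Siglech at 0.54 (0.16) and the CD47 ligand Thbs1 at -0.69 (0.169). Siglech was at 0.32 without light damage replicate 2, and Thbs1 at -0.35 without control 4.

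Of 17 other signals from neurons and glia to microglia 3 rose, none fell and the median was 0.25. App, the amyloid precursor, rose from 414 ± 23.7 to 527 ± 48.1 CPM (SD, n = 5 each), with a log2 fold change of 0.35 (edgeR adjusted p = 0.00604) called in all 10 fits leaving out 1 library. The cytokine Mif rose by 0.25 (edgeR adjusted p = 0.0441), a call lost in 7 of those fits. Il33, an alarmin of Müller glia, was at 0.45 (0.077). None of the 3 was called without light damage replicates 1 and 2.

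**Figure D5:**
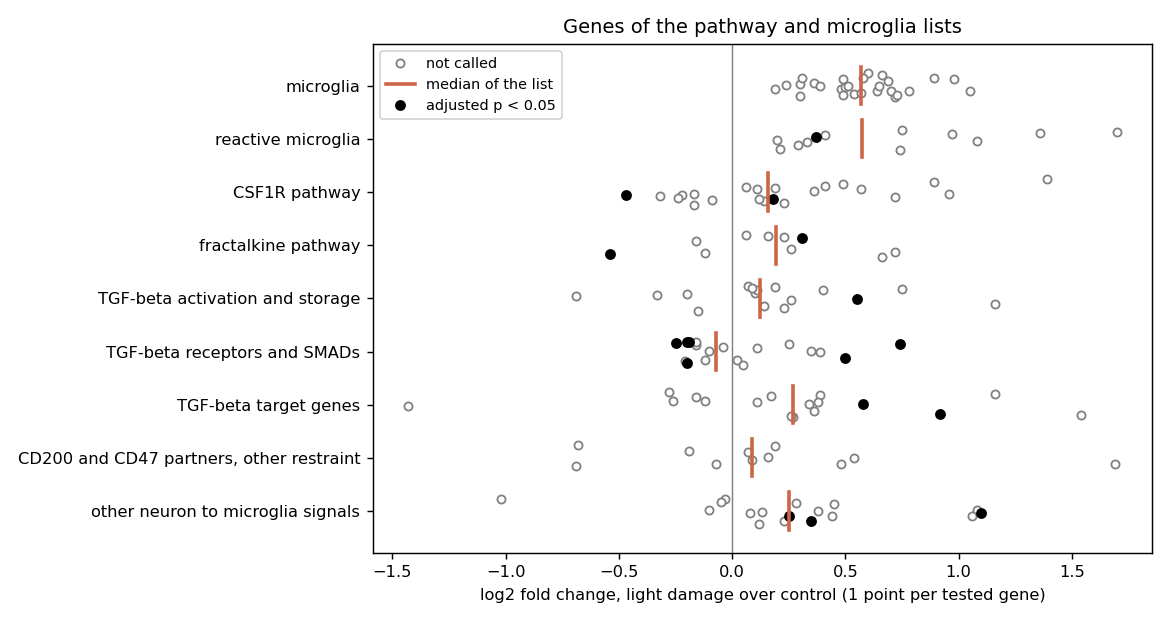
Log2 fold change, light damage against control, of each tested gene in the pathway and cell type lists, with filled points for called genes and a line at the median of each list. The microglial and reactive microglial medians are 0.57 and 0.58, and the median of TGF-beta receptors and SMAD genes is -0.07.

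Some markers of Müller glia and amacrine cells also moved with the groups. Of 16 Müller glia markers 8 rose and none fell, with a median of 0.37, and the list summed to 6710 to 9050 CPM in light damage and 5150 to 6590 in control. Of 14 amacrine markers 4 rose, with a median of 0.20 and sums of 2140 to 2370 against 1810 to 2100 CPM. Of 18 ganglion cell markers 1 rose, with a median of 0.11, a count near the 5.32% of all genes tested that were higher. Their sums of 1680 to 1820 CPM in light damage lay inside the control range of 1490 to 1990. Without light damage replicates 1 and 2 the calls for Müller glia, amacrine and ganglion cells numbered 2, 2 and 0. Neurons and Müller glia are sources of Tgfb2 and Cx3cl1, and the part of these shifts in their values was not tested.

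Endothelial, pericyte and astrocyte markers gave no call by edgeR's quasi-likelihood test among 14, 9 and 6 tested. At an unadjusted p under 0.05 there were 2, 0 and 1, against 5110 of all 16852 genes tested, and DESeq2 called 2, 0 and 0. Markers of pigment epithelium and ciliary body had a median of 0.88 over 12 tested genes with 1 rise. Without light damage replicates 1 and 2 their median was 0.29 with no rise. Of the 10 lens markers 3 rose, with a median of 6.96, and 2 rose with a median of 2.64 without those libraries. With the lens score of each library as a covariate, Csf1r was at 0.50 (edgeR adjusted p = 0.429) and Tgfb2 at 0.28 (0.424).

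The genes whose log2 CPM followed a member most closely over the 10 libraries were listed from 13501 genes, as a description without a test, since the libraries share the difference between groups and the standing of light damage replicates 1 and 2. Without light damage replicates 1 and 2, r of the named pairs of a member and another gene lay between 0.930 (Tgfb2 with Ptpra) and 0.986 (Cx3cr1 with Erap1). For Csf1r the 5 highest were the peroxiredoxin Prdx6 (Pearson r 0.963), the lysosomal fucosidase Fuca1 (0.960), progranulin, Grn (0.955), Pdlim3 (0.954) and the lysosomal protease Ctsd (0.953). For Cx3cr1 they were Erap1 (0.974), the Müller glia transcription factor Sox9 (0.958), Rhoc (0.955), Rsph9 (0.942) and Ccny (0.938). For Tgfb2 they were the channel Panx1 (0.958), Lasp1 (0.956), Lhfpl2 (0.948), Lamp5 (0.945) and the phosphatase Ptpra (0.942). Among the members themselves the closest pair was Il34 with Cd200 (0.91), then Cx3cr1 with Tgfb2 (0.84), while Csf1r with Cx3cr1 had 0.73 and Csf1r with Il34 had 0.39.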

How the data were processed

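Retinal total RNA was sequenced in 5 light damage and 5 control libraries, grouped by the sample titles. The deposited table gives the authors' counts per gene as whole numbers. Bowtie2, RSEM 1.3.1, DESeq2 1.4.5 and GRCm39 appear in the submitters' processing notes without their roles. Whether the counts are rounded estimates was not given in the sources used here. Symbols, lengths and overlaps came from GENCODE M21 (GRCm38), which matched 19892 identifiers. No library pair held identical values or agreed within sampling noise (lowest chi-square per degree of freedom 5.77).

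Genes passing filterByExpr, which held 99.804% to 99.924% of a library's counts, were compared with edgeR 4.0.16 in R 4.3.3: TMM scaling, robust quasi-likelihood fit, group as the single term, Benjamini-Hochberg adjustment over all genes tested. Log2 CPM used a prior count of 2. Ratios within libraries were compared by two-sided exact permutation tests. Alternatives were DESeq2 1.42.0, limma 3.58.1 (voom), other scalings and filters, a replicate block, a term for or removal of light damage replicates 1 and 2, a lens covariate, and leaving out each library. The steps were tested on simulated data. Figures used matplotlib 3.10.9 in Python 3.11.15.

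The members and gene lists were chosen with earlier results of these data known. Named were all members, up to 4 genes of lowest p and any called gene of each pathway or myeloid list, Sirpa, and the 5 genes most like a member. P2ry12, Tmem119, Ccr2, Hmgxb3, Xist and the member pairs with named correlations lie outside that rule and were chosen after their values were seen. Among called genes of the pathway lists, 2 are not reported here by name. Genes of the other cell type lists are given as counts and medians.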

Additional observations from a re-analysis of the deposited data

Results flagged for a closer look

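The log2 ratio of Cd47 to Sirpa in light damage replicate 3 was -0.641, while the other 4 light damage libraries lay between -1.09 and -0.986. The gap to the nearest library was 0.762 of the group's range, above the critical value of 0.71 for 5 samples. This was 1 of 40 groups of 5 libraries looked at, and chance alone flags about 1 group in 20.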

How the results depend on the processing

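Csf1r and Tgfb2 kept their calls under limma-voom, the other scalings, both other filters and the fit without robust dispersion. The count of called members was 4 with DESeq2, 1 to 3 when 1 library was left out, and 0 without light damage replicates 1 and 2, with a term for them, or with the lens covariate. Those last 3 settings left 135, 258 and 1 genes higher and 268, 439 and 7 lower over all genes. DESeq2 gave 1340 higher and 1543 lower over all genes, against 896 and 1323 in the main fit. Leaving out 1 library gave 399 to 1347 higher and 723 to 1644 lower. The counts moved by over 1.5 times without control 1 (1347 higher), control 5 (590 and 865), light damage replicate 1 (440 and 723), replicate 2 (481 and 825) and replicate 3 (399 and 728). Scaling by library totals alone gave 1147 higher and 912 lower. Same-numbered libraries deviated together with correlations of 0.0522 to 0.316, and 3 of 5 controls correlated best with their own number. The labels do not say that the numbers pair the samples, and these values do not settle it. Group was kept as the single term for want of such a label, and block results are given above only for Csf1, Cx3cr1 and Cx3cl1. The replicate block gave 1431 higher and 1854 lower, and 4 members called (Csf1r, Tgfb2, Cx3cr1 and Cx3cl1). In the lists it called 3 microglial markers and 5 reactive microglial genes, all higher. It called 4 CSF1R pathway genes higher and 3 lower, and 1 rod marker higher and 7 lower. Block calls of the other lists are not reported here. Estimates near 0 changed sign. Il34 was -0.09 with the lens covariate. Cd200 was -0.03 without light damage replicates 1 and 2, -0.04 with a term for them and -0.14 with the lens covariate, and ran from -0.03 to 0.07 with 1 library left out. Cd47 was 0.004 with DESeq2, 0.02 with library totals, 0.01 without a filter, 0.04 and 0.03 without or with a term for light damage replicates 1 and 2, and 0.08 with the lens covariate, and ran from -0.08 to 0.05 with 1 library left out. Tgfbr1 ran from -0.06 to 0.06. Lyve1 was -0.04 and Itgb1 -0.08 with the lens covariate. The ratio of Cx3cr1 to microglial markers was -0.02 without light damage replicates 1 and 2 and -0.02 to 0.18 with 1 library left out, and that of Cd47 to Sirpa -0.18 to 0.02. The count of ratios past the adjustment says nothing of stability, since the smallest exact p is 0.00794 with 5 against 5 libraries, 0.0179 with 3 against 5 and 0.0625 with 5 sign flips, and a lone ratio among 10 cannot pass at any of them. The causes were not tested. Tgfb1 had 20 to 86 counts a library, and the part of depth in its spread was not tested.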
